A study of Mus musculus with 4 samples.

Results

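The 38 genes described here encode Wnt ligands and the proteins that export them, bind them at the cell surface, block them outside the cell or carry their signal to the nucleus. They were chosen by symbol, whatever their values, from the 14924 genes in the table: the *Wnt*, Frizzled (*Fzd*), secreted Frizzled-related (*Sfrp*), Dickkopf (*Dkk*) and R-spondin (*Rspo*) families, and a fixed set of single co-receptors, antagonists, export proteins and β-catenin partners. The same symbols name 58 genes in the mouse annotation, and the other 20 were not analysed here. By role, 10 of 21 ligand and export genes, 1 of 4 R-spondins, 10 of 10 Frizzled receptors, 5 of 5 co-receptors, 3 of 6 secreted Wnt binders, 2 of 5 Dickkopf genes and 7 of 7 cytoplasmic and nuclear genes were in the table. RNA-seq was run on poly(A) RNA of whole lenses from 1-month-old mice on a C57BL/6J background, with 2 libraries from *S100A4* null (S100A4-/-) mice and 2 from wild type (WT) littermates that carry no engineered allele. Each library pooled 6 to 12 lenses, so the spread between libraries of a group is a spread between pools and not between single mice. No tissue-specific promoter or Cre is named for the null line. The comparison asks how loss of S100A4, a small calcium-binding protein, changes gene expression in the lens.

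Each value is a normalized read count, the reads on a gene divided by 1 size factor per library, and it is not divided by gene length. Depth on genes was 81602367 and 74108017 reads for S100A4-/- and 70253985 and 68038158 for WT. In value, a single read was worth 1.04 and 1.09 for WT, and 0.856 and 1.01 for S100A4-/-. A count of 0 allows a level of up to 3 reads, that is a value of 3.13 and 3.28 for WT and of 2.57 and 3.04 for S100A4-/-, and this floor covers counting error only. The deleted gene followed the labels, with *S100a4* at 14.6 and 18.2 in S100A4-/- and 14419.8 and 14385 in WT (log2 fold change -9.70). Lens identity was plain in all 4 libraries, where *Bfsp1*, a beaded filament protein of lens fibers, had means of 683735 ± 23957 in S100A4-/- and 714009.9 ± 9344 in WT (SD, n = 2).

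Wnt ligands are lipid-modified secreted proteins. Porcupine (*Porcn*) attaches the lipid and Wntless (*Wls*) carries the ligand to the cell surface. In the β-catenin branch, a ligand bound to a Frizzled receptor and an LRP5 or LRP6 co-receptor stops the Axin complex from marking β-catenin (*Ctnnb1*) for destruction, and β-catenin then works with TCF/LEF factors at target genes. ROR1, ROR2 and RYK are receptors used mostly outside that branch. R-spondins strengthen the signal, and SFRP proteins, WIF1 and Dickkopf proteins such as DKK1 restrain it. In the eye, this pathway is known for its part in lens epithelium and fiber polarity, in setting up the ciliary margin at the edge of the retina, and in growth of retinal vessels.

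Levels of different genes were compared only per length, as normalized reads per kb of exon for every 1000000 reads on genes, here called the per-kb level. *Dkk3* and *Sfrp1*, of the secreted antagonist families, and a single ligand led the WT lens. The other measured genes of those families, *Frzb*, *Dkk1* and *Wif1*, ranked 24, 32 and 35 among the 38. *Dkk3*, a divergent member of the Dickkopf family, had a per-kb level of 317 ± 0.50 in WT (SD, n = 2), and *Sfrp1*, which binds Wnt ligands outside the cell, had 187 ± 0.936. *Wnt7b* followed with 89.6 ± 1.46, ahead of *Ctnnb1* with 65.0 ± 0.750 and *Rspo1* with 28.5 ± 1.04. These 5 genes stood apart from one another by more than the spread between libraries. Among the other ligands, *Wnt7a* was at 17.1 ± 0.788, and the rest ran down to *Wnt6* at 0.00341 ± 0.00482, the lowest of the 38.

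The receptors lay below the leading ligands and the leading members of the antagonist families on the same per-kb scale. *Fzd1* was the highest Frizzled, at 7.40 ± 0.366, followed by *Fzd6* at 4.48 ± 0.163. Of the co-receptors, *Ryk* was at 5.36 ± 0.289 and *Ror1* at 3.83 ± 0.290, while *Lrp6* was at 1.67 ± 0.0179 and *Lrp5* at 0.0926 ± 0.0233. The 2 co-receptors of the β-catenin branch were therefore unequal in the WT lens, with *Lrp6* above *Lrp5* in both libraries. *Axin1* was at 5.45 ± 0.142, and *Lef1* was the lowest of the cytoplasmic and nuclear genes at 0.00993 ± 0.00202. The plot of levels shows each library on a log axis.

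**Figure D1:**
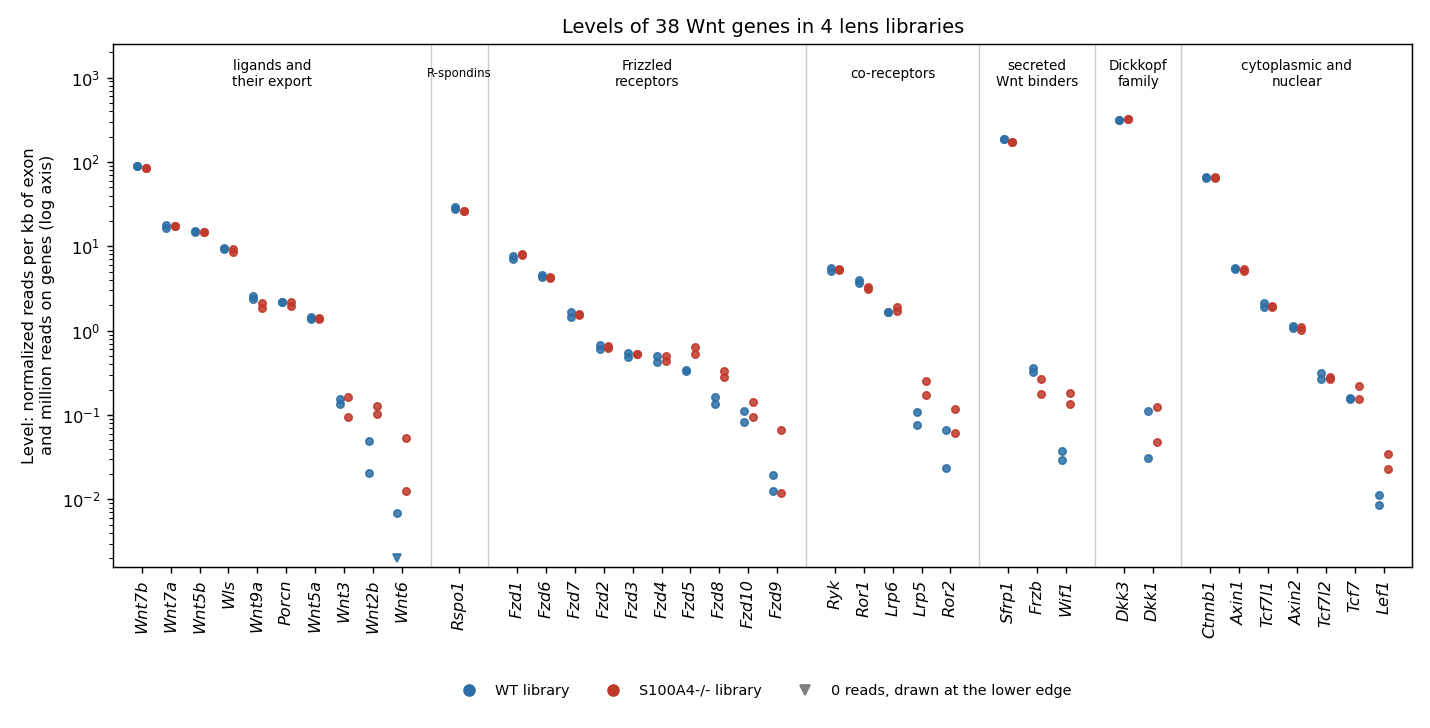
Level of each of the 38 Wnt genes in each library (points, 2 WT and 2 S100A4-/-), in normalized reads per kb of exon for every 1000000 reads on genes on a log axis, grouped by role and ordered by the WT mean. Dkk3, Sfrp1 and Wnt7b stood highest in both genotypes, and the genes with clearly separated colours lay mostly near the bottom.

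In S100A4-/- lenses, 5 Wnt genes were higher than in WT at an adjusted p of at most 0.05: the co-receptor *Lrp5*, the Frizzled receptors *Fzd5* and *Fzd8*, the ligand *Wnt2b* and the secreted antagonist *Wif1*. A further 2, the Wnt binder *Sfrp1* and the receptor *Ror1*, were lower, and the other 30 of the 37 tested did not pass. Across all 14780 genes tested with limma, 831 were higher, which is 5.62%, and 197 were lower, which is 1.33%. With a 2-fold change required as well, 4 Wnt genes remained higher (*Lrp5*, *Fzd8*, *Wif1* and *Wnt2b*), against 539 of all genes (3.65%). None (0) was lower by that rule with limma, DESeq2 or edgeR, against 11 of all genes (0.0744%), and at an unadjusted limma p under 0.05 there were 5 Wnt genes lower (6.71% of all genes) and 7 higher (11% of all genes). Of the other tools, DESeq2 called 3 Wnt genes higher (3.86% of all genes) and 1 lower (0.609%), and edgeR called 5 higher (5.81%) and 1 lower (1.22%). Both S100A4-/- libraries lay above both WT libraries for 9 of the 37 and below for 8, and over all genes these shares were 23.7% and 23.2%. The median log2 fold change was -0.0045 over the 37 Wnt genes and -0.0052 over all genes tested.

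*Lrp5* (ENSMUSG00000024913, chromosome 19 from 3584828 to 3686564, GRCm38) encodes a co-receptor that joins a Frizzled to receive a Wnt ligand. Its normalized count was 179.8 and 124 in S100A4-/- against 54.3 and 77.7 in WT. The groups did not overlap, with means of 152 ± 39.7 and 66.0 ± 16.6 (SD, n = 2), and the log2 fold change was 1.19 ± 0.22 (SE; limma adjusted p = 0.000190). Even so, *Lrp5* kept a per-kb level of 0.213 in S100A4-/-, below the 1.79 of *Lrp6* in the same lenses. *Lrp6* itself had a log2 fold change of 0.10, with a 95% interval from -0.03 to 0.23, and did not pass the test.

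*Fzd5* (ENSMUSG00000045005, chromosome 1 from 64730558 to 64737751) and *Fzd8* (ENSMUSG00000036904, chromosome 18) are Frizzled receptors of closely related sequence. *Fzd5* was at 328 and 269.6 in S100A4-/- and at 172 and 169 in WT, a log2 fold change of 0.80 ± 0.14 (SE; limma adjusted p = 7.37e-05). *Fzd8* was at 145 and 124 in S100A4-/- and at 58.5 and 71.2 in WT, a log2 fold change of 1.04 ± 0.21 (SE; limma adjusted p = 0.000693). For both receptors every S100A4-/- library lay above every WT library. The 8 other Frizzled genes did not pass, and the 6 of them with a mean count of at least 100 had log2 fold changes from -0.07 to 0.11.

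*Wif1* (ENSMUSG00000020218, chromosome 10 from 121033960 to 121100650) encodes Wnt inhibitory factor 1, a secreted protein that binds Wnt ligands. It was counted at 24.0 and 32.4 in S100A4-/- and at 5.22 and 6.57 in WT, which is 28 and 32 reads against 5 and 6. The log2 fold change was 2.07 ± 0.56 (SE; limma adjusted p = 0.0128), the largest among the Wnt genes that passed. *Wnt2b* (ENSMUSG00000027840, chromosome 3 from 104945272 to 104961921), a ligand of the β-catenin branch expressed at the ciliary margin of the developing eye, was at 39.4 and 31.4 in S100A4-/- and at 6.26 and 15.3 in WT. Its log2 fold change was 1.73 ± 0.48 (SE; limma adjusted p = 0.0182), and it was the only ligand that passed. Both genes had no overlap between groups, but both rest on few reads.

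The genes that rose were genes of low level. Their mean normalized counts over the 4 libraries ran from 17.1 to 234.6 with a median of 99.5, and by per-kb level in WT they ranked from 25 to 35 among the 38. The median over all genes called higher was 107, and over all genes tested it was 313.6. The calls depended on the libraries. With any library left out, fewer of all genes tested passed as well, in either direction, so this was not particular to Wnt genes. With S100A4-/- replicate 1 left out, 0 of the 5 passed (the smallest limma adjusted p was 0.126, for *Fzd5*), and with S100A4-/- replicate 2 left out only *Fzd5* and *Lrp5* passed. Without WT replicate 1 all but *Wnt2b* passed (limma adjusted p = 0.168), and without WT replicate 2 all 5 did. *Wif1* and *Wnt2b* also missed the threshold by DESeq2, with adjusted p = 0.0617 and 0.132, while edgeR called all 5. Both missed it under quantile normalization too (limma adjusted p = 0.075 and 0.11), and the log2 fold change of *Fzd8* there was 0.89. The log2 fold change of *Wnt2b* was 1.15 without WT replicate 1 and 2.32 without WT replicate 2. Without limma's trend of variance with level, 0 of the 37 Wnt genes passed in either direction (the smallest adjusted p was 0.0648, for *Wif1*). Over all genes tested, 179 were then higher and 8 lower.

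**Figure D2:**
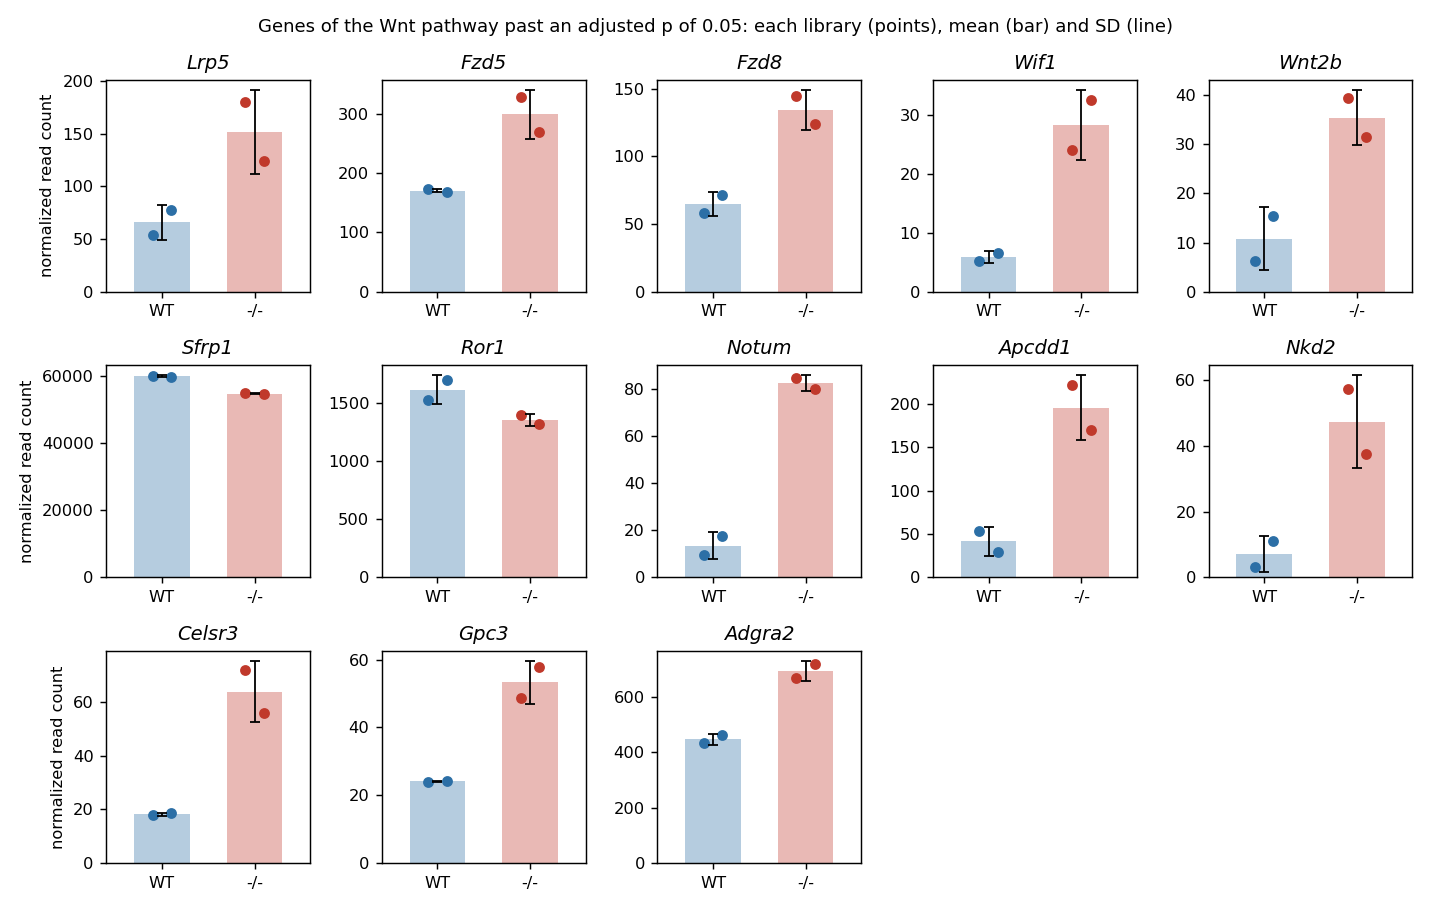
Normalized read count of the Wnt genes and other pathway genes past an adjusted p of 0.05, with each library as a point, the mean as a bar from 0 and the SD as a line (n = 2 per genotype; -/- is S100A4-/-). The points of the genotypes do not overlap in any panel, and Sfrp1 and Ror1 are the panels in which the S100A4-/- points lie lower. The panels were picked by adjusted p, so this lack of overlap is no further support. Over all genes tested, 23.7% had S100A4-/- above both WT libraries and 23.2% below.

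The sequences just before the start sites are shown for 4 of the 7 genes that changed, *Fzd5*, *Wnt2b*, *Wif1* and *Ror1*, to let the regions be compared. Those of *Lrp5*, *Fzd8* and *Sfrp1* are not shown here. Each is the 250 bases upstream of the RefSeq start on GRCm38.p6, written 5′ to 3′ on the gene's strand, with every CG dinucleotide in capitals. They lie at chr1:64737751-64738000 (minus strand, *Fzd5*), chr3:104961710-104961959 (minus strand, *Wnt2b*), chr10:121033754-121034003 (plus strand, *Wif1*) and chr4:100095541-100095790 (plus strand, *Ror1*). The gene coordinates given above come from another annotation, and the *Wnt2b* and *Wif1* windows lie partly inside them.
Fzd5: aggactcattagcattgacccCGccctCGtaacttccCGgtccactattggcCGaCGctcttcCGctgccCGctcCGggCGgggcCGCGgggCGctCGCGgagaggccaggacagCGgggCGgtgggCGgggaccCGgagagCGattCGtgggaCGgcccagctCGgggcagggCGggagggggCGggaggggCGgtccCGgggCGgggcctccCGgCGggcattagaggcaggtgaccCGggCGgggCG
Wnt2b: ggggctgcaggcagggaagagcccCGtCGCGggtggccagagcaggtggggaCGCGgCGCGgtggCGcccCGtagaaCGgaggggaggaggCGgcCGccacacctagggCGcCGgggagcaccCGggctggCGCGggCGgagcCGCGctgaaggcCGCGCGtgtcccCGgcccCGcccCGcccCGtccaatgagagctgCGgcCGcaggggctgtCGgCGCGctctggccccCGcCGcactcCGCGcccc
Wif1: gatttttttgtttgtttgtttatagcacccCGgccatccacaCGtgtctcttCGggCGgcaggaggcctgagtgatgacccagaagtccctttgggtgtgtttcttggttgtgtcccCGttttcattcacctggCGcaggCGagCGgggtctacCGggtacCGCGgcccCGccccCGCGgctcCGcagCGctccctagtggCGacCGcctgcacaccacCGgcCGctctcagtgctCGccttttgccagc
Ror1: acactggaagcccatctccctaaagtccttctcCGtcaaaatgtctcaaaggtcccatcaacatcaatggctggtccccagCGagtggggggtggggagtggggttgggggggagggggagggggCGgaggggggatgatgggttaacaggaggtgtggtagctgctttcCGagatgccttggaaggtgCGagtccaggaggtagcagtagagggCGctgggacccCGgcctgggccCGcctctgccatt
The first 3, from genes that rose, hold 32, 36 and 21 CG dinucleotides, and the fourth, from a gene that fell, holds 8. Among 32851 such windows of 27025 genes the median was 6, and 17.9% held at least 20. Wnt genes as a group were rich in them, with a median of 23 over 34 windows of 26 genes and 58.8% with at least 20. Those windows were not split by whether the gene changed. Windows were also searched on both strands for CTTTGA, a core of TCF/LEF sites, and TAATCC, a core of sites for the photoreceptor factor CRX and its OTX relatives. CTTTGA was in the *Ror1* window alone of the 4, and in 17.6% of the Wnt windows against 13.8% of all windows. TAATCC was in none of the 4, in 5.88% of the Wnt windows and in 6.25% of all windows. A match is a run of letters and not a bound site.

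The genes that fell were abundant and moved little. *Sfrp1* (ENSMUSG00000031548, chromosome 8 from 23411502 to 23449632) was at 54862 and 54576 in S100A4-/- and at 60041 and 59617 in WT, a log2 fold change of -0.13 ± 0.04 (SE; limma adjusted p = 0.0386). *Ror1* (ENSMUSG00000035305, chromosome 4 from 100095791 to 100444765), a receptor used by Wnt5a, was at 1392 and 1318 in S100A4-/- and at 1529 and 1701 in WT, a log2 fold change of -0.25 ± 0.07 (SE; limma adjusted p = 0.0143). Both S100A4-/- libraries lay below both WT libraries for each gene. When libraries were scaled to equal totals, neither passed, with limma adjusted p = 0.357 for *Sfrp1* and 0.142 for *Ror1*. Under quantile normalization the log2 fold change of *Sfrp1* was 0, and *Ror1* passed (limma adjusted p = 0.0497). That method sets each value by its rank within a library, so it cannot show a change that leaves the rank the same. By edgeR *Sfrp1* missed the threshold (adjusted p = 0.07005) and *Ror1* passed, and by DESeq2 *Ror1* missed it (adjusted p = 0.087) and *Sfrp1* passed. *Sfrp1* also missed the threshold with each library left out in turn (limma adjusted p from 0.116 to 0.361), and *Ror1* did without S100A4-/- replicate 1 (0.148), S100A4-/- replicate 2 (0.2698) and WT replicate 2 (0.336).

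Most of the abundant Wnt genes differed little between the genotypes. The 12 genes not called that had a mean count of at least 1000 had log2 fold changes from -0.13 to 0.11, with 95% intervals that all lay between -0.23 and 0.23. *Wnt7b* was at 30749 and 30740.2 in S100A4-/- and at 31747 and 32489 in WT, a log2 fold change of -0.06 with an interval from -0.14 to 0.02. *Wnt7a* was at 3991 and 3988 in S100A4-/- and at 4112 and 3853 in WT, with an interval from -0.10 to 0.11. For these ligands, the intervals hold changes far smaller than 2-fold. *Wnt9a*, named after its values were seen, came closest to passing, with a log2 fold change of -0.30 (limma adjusted p = 0.0547).

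*Rspo1*, a secreted protein that raises the number of Frizzled receptors at the surface, was at 3722 and 3677 in S100A4-/- and at 3939 and 4147 in WT. Its log2 fold change of -0.13 did not pass (limma adjusted p = 0.159). *Dkk3* was at 78434 and 80316 in S100A4-/- and at 77855 and 78029 in WT, with a 95% interval from -0.05 to 0.11. *Dkk1*, an antagonist that binds LRP5 and LRP6, had 10 and 22 reads in S100A4-/- against 19 and 5 in WT. Its groups overlapped, and its log2 fold change of 0.36 had an interval from -0.90 to 1.63 and did not pass (limma adjusted p = 0.832). *Frzb*, a relative of *Sfrp1*, was at 62.5 and 41.6 in S100A4-/- and at 84.6 and 76.6 in WT. Its groups did not overlap, and its log2 fold change of -0.65 had an interval from -1.18 to -0.12 and did not pass over all genes (limma adjusted p = 0.1497).

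Of the receptors not called, *Fzd1* was at 2489 and 2414 in S100A4-/- and at 2194 and 2353 in WT, a log2 fold change of 0.11 with a 95% interval from -0.01 to 0.23. *Fzd6*, which acts in planar cell polarity, was at 1519 and 1488 against 1619 and 1538, a log2 fold change of -0.07 with an interval from -0.20 to 0.06. *Ryk* was at 1783 and 1731 against 1712 and 1848, and its interval ran from -0.15 to 0.11. These 3 receptors thus had intervals that included 0. *Ror2*, a receptor for Wnt5a, was at 36.8 and 19.3 in S100A4-/- and at 7.31 and 20.8 in WT. Its log2 fold change was 1.04, but the groups overlapped and it did not pass (limma adjusted p = 0.276). With WT replicate 1 left out the log2 fold change of *Ror2* was 0.34, and with WT replicate 2 left out it was 1.74.

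The cytoplasmic and nuclear genes gave no call among 7. By limma 1 of the 7 was higher at an unadjusted p under 0.05, beside 11% of all genes, and DESeq2 and edgeR called 0. *Ctnnb1*, which encodes β-catenin, was at 24339 and 24938 in S100A4-/- and at 24917 and 24514 in WT, with a log2 fold change of -0.0045 and an interval from -0.09 to 0.08. Its groups overlapped. *Axin1*, a scaffold of the destruction complex, was at 1413 and 1520.2 against 1498 and 1555. *Axin2*, which β-catenin signalling itself induces and which is widely used as its readout, had a log2 fold change of -0.08 with an interval from -0.28 to 0.13 (limma adjusted p = 0.768). *Lef1*, the gene with the unadjusted p under 0.05, was at 14.6 and 22.3 against 7.31 and 5.47, which is 17 and 22 reads against 7 and 5. Its log2 fold change of 1.38 had an interval from 0.14 to 2.61 and did not pass (limma adjusted p = 0.211).

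At the lowest levels the intervals were wide. The 8 genes not called that had a mean count under 100 had log2 fold changes from -0.65 to 1.38 and 95% intervals between -1.32 and 2.80. *Fzd9* had 13 and 2 reads in S100A4-/- against 2 and 3 in WT, and *Wnt6*, which was not tested, had 10 and 2 reads against 0 and 1. No fold is given for *Wnt6*. For *Fzd9* the fold is only plotted, and its interval set both ends of the range above. The plot of fold changes shows how the intervals widen toward the lower genes of each role.

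**Figure D3:**
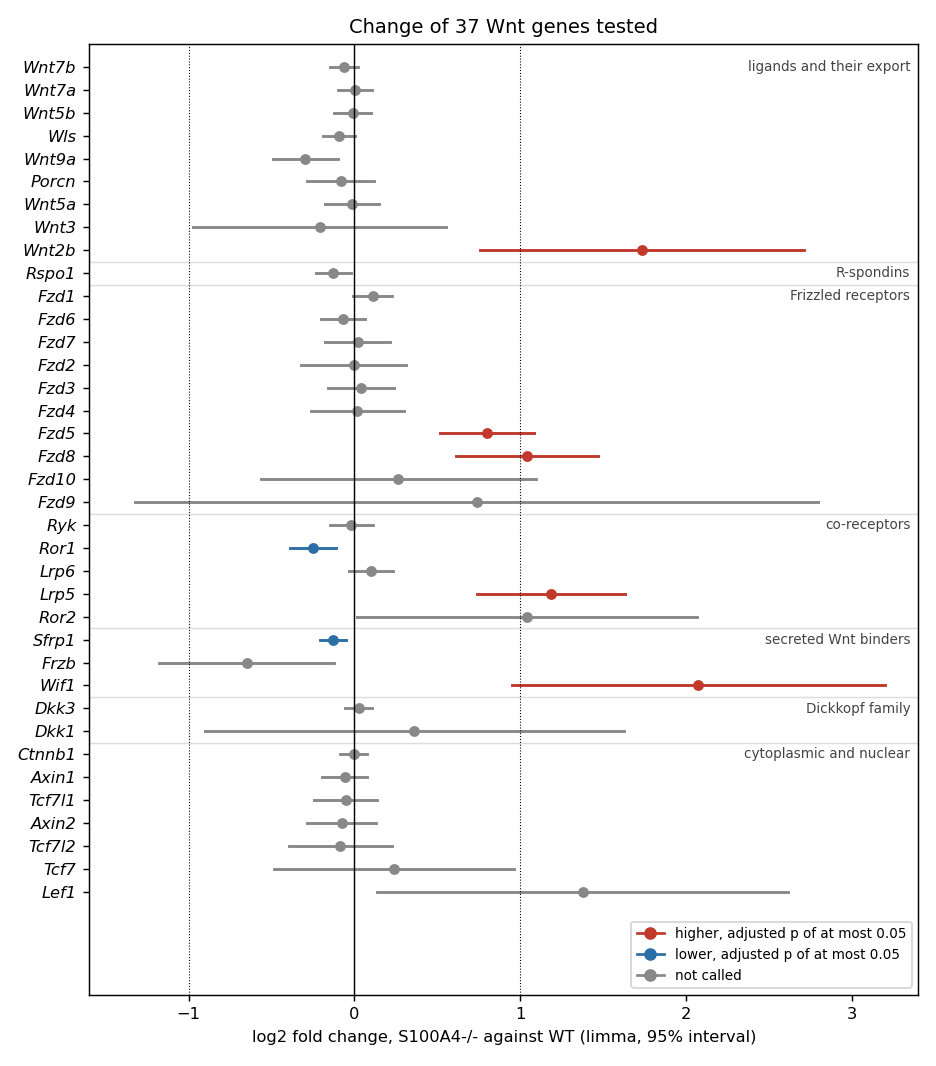
Log2 fold change of S100A4-/- against WT for the 37 Wnt genes tested (points) with the 95% interval from limma (lines), grouped by role and ordered within a role by WT level per length. The dotted lines mark 2-fold in either direction, and 5 genes called higher and 2 called lower are coloured.

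The rest of the pathway was read from 5 lists that hold 89 measured genes outside the 38. Of these, 6 rose, which is 6.74% against 5.62% of all genes tested, and 0 fell by limma, DESeq2 or edgeR. At an unadjusted limma p under 0.05, 11 were higher and 6 lower, beside 11% and 6.71% of all genes. Among 20 other surface and secreted regulators, 4 rose. *Notum*, an enzyme that removes the lipid from Wnt ligands, was at 84.8 and 80.07 in S100A4-/- and at 9.40 and 17.5 in WT (log2 fold change 2.59, limma adjusted p = 1.45e-06). *Apcdd1*, a membrane protein that binds Wnt and LRP5, was at 222 and 169 against 53.3 and 29.6 (log2 fold change 2.26). *Adgra2*, a co-receptor for Wnt7 ligands in vessels of the brain, was at 666 and 719 against 433 and 461 (0.63), and the glypican *Gpc3* at 48.8 and 57.8 against 24.0 and 24.1 (1.11). Both S100A4-/- libraries lay above both WT libraries for each of these 4. The most abundant gene of the list, *Cpe*, did not pass (log2 fold change 0.09, limma adjusted p = 0.397).

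Inside the cell 1 of 24 cytoplasmic genes rose (4.17%, beside 5.62% of all genes tested). This was *Nkd2*, which binds Dishevelled and restrains the signal, at 57.4 and 37.5 in S100A4-/- against 3.13 and 10.9 in WT. That rise (log2 fold change 2.75, limma adjusted p = 0.000234) stands on 3 and 10 WT reads, and the log2 fold change was 1.99 without WT replicate 1 and 3.52 without WT replicate 2. Of 15 nuclear co-factors 0 passed by limma, DESeq2 or edgeR. At an unadjusted limma p under 0.05 there were 0, beside 11% of all genes higher and 6.71% lower. The planar cell polarity list had 1 rise among 22 (4.55%, beside the same 5.62%). This was *Celsr3*, an atypical cadherin of neurons, at 71.9 and 55.7 against 17.8 and 18.6 (log2 fold change 1.75, limma adjusted p = 0.00046). The most abundant genes of these lists, *Csnk1a1*, *Aes* and *Rac1*, had log2 fold changes of -0.09, -0.05 and -0.05 and did not pass. The list medians lay between 0.01 and 0.02, beside -0.0052 for all genes tested. Of the 6 rises outside the 38 Wnt genes, *Apcdd1* and *Adgra2* passed by limma without S100A4-/- replicate 1, and these and *Notum* without S100A4-/- replicate 2. With either WT library left out, 5 of the 6 passed, all but *Gpc3* (limma adjusted p = 0.0601 without WT replicate 1 and 0.057 without WT replicate 2). *Gpc3* also missed the threshold by DESeq2 (adjusted p = 0.206).

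In the list of β-catenin target and readout genes, 2 of 17 rose (11.8%, beside 5.62% of all genes tested). These were *Notum* and *Apcdd1*, which are also surface regulators, and both restrain Wnt signals. At an unadjusted limma p under 0.05, 3 of the 17 were higher and 2 lower, beside 11% and 6.71% of all genes. The other 15 did not pass. Some of those, named after their values were seen, were *Ccnd1*, a cell cycle gene, with a log2 fold change of 0.06 and a 95% interval from -0.04 to 0.17, *Znrf3*, a ligase that removes Frizzled receptors, with -0.03 and an interval from -0.25 to 0.19, and *Nkd1*, with 0.11 and an interval from -0.52 to 0.75. The most abundant, *Cd44*, had a log2 fold change of -0.09 (limma adjusted p = 0.274). *Ccn4* had the largest log2 fold change among those not called, equal to 3.03-fold, on 16 and 21 reads against 7 and 3. By the ratio of group means *Tbx3* was ahead, at 3.43 against 3.30 for *Ccn4*, on 5 and 21 reads against 4 and 3. The list's median was 0.24.

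Markers of other eye cells moved in the same libraries, and their values stand here beside the Wnt genes that rose. In bulk tissue, a change in the number of cells of a type and a change in RNA per cell cannot be told apart. All 10 rod markers rose, with a median log2 fold change of 1.94 and summed normalized counts of 9379.7 and 9227 in S100A4-/- against 2276 and 2468 in WT. *Gnat1*, the rod transducin subunit, was the most abundant, at 3339 and 3327 against 736 and 782. Of 11 markers of inner retinal neurons 9 rose (median 1.63, sums 2704 and 2539 against 1239 and 1259), with the highest normalized count in *Trpm1*. *Cabp5* of that list went the other way, at 186 and 215 in S100A4-/- against 242 and 245 in WT. Its log2 fold change of -0.29 did not pass (limma adjusted p = 0.276). Of 7 Müller glia markers 4 rose (median 1.40, sums 10030.5 and 9985 against 5651 and 5779). *Car14*, the most abundant Müller glia marker in WT, did not pass (log2 fold change 0.08). DESeq2 called 7 and edgeR 8 of the inner neuron markers higher, and both called all 10 rod markers and 4 of the glia markers. In the WT libraries *Gnat1* had 705 and 714 reads and *Trpm1* had 568 and 513, and the cells that gave these reads were not tested. Of the 11 inner neuron markers 1 had 0 reads in a WT library.

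All 6 pigment cell markers rose, with a median of 2.74 and sums of 1425 and 1491 against 214 and 279. DESeq2 called 5 of them higher and edgeR all 6. *Dct*, an enzyme of melanin synthesis, was at 581 and 582 in S100A4-/- and at 31.3 and 44.9 in WT, and *Tyrp1*, the most abundant in WT, at 314 and 268 against 92.9 and 153. Of 7 ciliary epithelium markers 5 rose, with a median of 2.17 and sums of 1887 and 1741 against 725 and 839.8. *Zic1* and *Zic2*, transcription factors of the ciliary margin, were at 294 and 233 against 51.2 and 61.3, and at 178 and 139.9 against 19.8 and 29.6. *Msx1*, the most abundant of that list in WT, did not pass (log2 fold change 0.11). Some of the rod, inner neuron, glia and ciliary genes are ones the study itself names from these libraries. The direction of those lists here is therefore not independent evidence. The study also reported higher levels of several retinal genes by qRT-PCR. For some of them it reported more protein in S100A4-/- lenses by immunoblot or immunofluorescence.

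Lens markers differed less in fold change. Of 9 fiber markers 0 passed by limma, with 3 lower at an unadjusted p under 0.05, beside 6.71% of all genes. DESeq2 called 1 lower (0.609% of all genes) and edgeR 2 (1.22%). The fiber median was -0.06, and *Bfsp1*, with the highest normalized count, had -0.06. Of 7 epithelial markers 0 passed by limma, DESeq2 or edgeR. At an unadjusted limma p under 0.05, 2 were higher and 2 lower, beside 11% and 6.71% of all genes. The epithelial median was -0.04, and *Npnt*, with the highest normalized count, had -0.03. Of 5 macrophage markers 3 rose (sums 239.8 and 213 against 83.5 and 72.3), while DESeq2 called 1 and edgeR 3. Among those called by limma was *Csf1r*, with the highest normalized count and a log2 fold change of 1.22. Of 6 endothelial markers 1 rose, *Kdr*, the main VEGF receptor, at 74.5 and 60.8 against 9.40 and 9.85. *Tek*, with the highest normalized count in WT, did not pass (log2 fold change -0.24). Of 5 mesenchymal markers *Col1a2* rose (log2 fold change 0.34) and *Ogn* fell (-0.20), and of 3 corneal markers 0 passed by limma, DESeq2 or edgeR, with 1 higher at an unadjusted limma p under 0.05, and *Aldh3a1*, the most abundant, was at 1527 and 1682 in S100A4-/- against 1599.6 and 1615 in WT. The part of these other cell types in the rises of *Lrp5*, *Fzd5*, *Fzd8*, *Wif1*, *Wnt2b* and the 6 other pathway genes was not tested. The plot of marker lists sets them beside the Wnt genes.

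**Figure D4:**
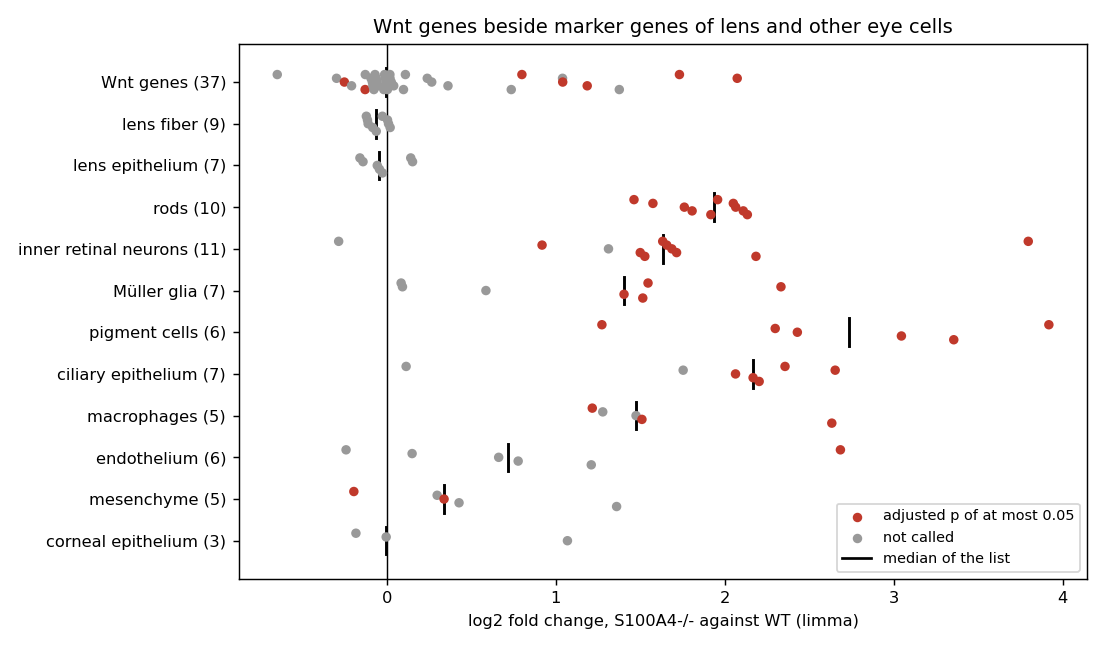
Log2 fold change of S100A4-/- against WT for the Wnt genes and for markers of lens and other eye cells, each point a gene, red where the adjusted p was at most 0.05, with the list's median as a vertical line and the number tested in parentheses. The Wnt median of -0.0045 lies near 0, as do those of the corneal epithelium (-0.0041), lens epithelium (-0.04) and lens fiber (-0.06) lists. The median of all genes tested was -0.0052. A few Wnt genes lie out among the positive values of the other lists.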

How the data were processed

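Stranded, single-end mRNA-seq libraries of pooled lenses were made by the authors, 2 per genotype, grouped here by their labels. The submitters' notes and the study's methods name Trim Galore for trimming, STAR for mapping to mm10 (GRCm38), HTSeq for counting reads of a single locus, a minimum of 10 reads in some library and DESeq2 for normalization. Tool versions and the strand setting of the counting are not given in the sources used here. The signal values that the authors deposited are counts per gene, each divided by its library's size factor and not by length. All were whole multiples of 1 read (100% within a tolerance of 0.01), so reads were recovered by division. Replicates differed beyond sampling noise (chi-square per gene, mean 34.99 and median 1.998 in S100A4-/-, mean 15.04 and median 1.083 in WT). Per-sample columns not used numbered 0.

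Genotypes were compared with limma 3.58.1 (R 4.3.3; eBayes with a trend, two-sided) on log2(value + 1) and covered the 14780 genes that reached a value of 10 in some library, which left out 144. Fold changes are on that log2 scale, which understates low genes. Adjusted p-values are Benjamini-Hochberg values over all genes tested, called at 0.05, and intervals are limma's 95% intervals. DESeq2 1.42.0 and edgeR 4.0.16 on the recovered reads, other pseudocounts, filters and scalings, the replicate block and each library left out were alternatives. The fits were first tested on simulated data. Symbols, coordinates and exonic lengths came from GENCODE M21, matched for 14782 of 14924 genes, and promoter windows from RefSeq (GRCm38.p6), matched for 26 Wnt genes. Wnt genes are given by library when past the adjusted p, at least 2-fold, or among the 2 highest per length of a role. Each other list is given by its most abundant gene and at most 4 with the largest changes that passed. Most abundant there means the highest normalized count in WT, not divided by length. Genes outside this rule were named after their values were seen. The members and lists were chosen with earlier results of these data known.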

Additional observations from a re-analysis of the deposited data

How the results depend on the processing

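A pseudocount of 0.5 or 5, testing genes of any level, and TMM factors left the number of Wnt genes called, in each direction, within 1.5 times that reported. With genes limited to a mean value of at least 50, so that fewer were tested, 549 genes were higher, 281 by at least 2-fold, and 6 were lower by at least 2-fold. In that fit 3 Wnt genes were higher, 2 of them by 2-fold, and 2 other pathway genes. With scaling to equal totals 55 genes and 0 Wnt genes were lower, and the Wnt median was 0.0246. *Ryk* (0.0110) and *Ctnnb1* (0.0246) then turned positive. With quantile normalization 3 Wnt genes were higher, 1 of them by 2-fold, and 1 was lower, 1 other pathway gene was lower, and 25 genes were lower by at least 2-fold. *Dkk1* (-0.141), *Dkk3* (-0.0139) and *Ctnnb1* (0.0362) reversed sign. Without limma's trend 0 Wnt genes (0 by 2-fold, 0 lower) and 0 other pathway genes passed, of 179 higher (174 by 2-fold) and 8 lower (7 by 2-fold) among all genes, while DESeq2 called 3 Wnt genes higher and edgeR 5. DESeq2 called 90 genes lower, 6 by 2-fold, with 3 Wnt genes higher, 2 by 2-fold, and 1 lower. edgeR called 1 Wnt gene lower. The cause of these differences was not tested.

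Leaving out 1 library at a time, with 1 residual degree of freedom and the lone library assumed to vary like the others, gave 0 to 5 Wnt genes higher (0 to 4 by 2-fold), 0 to 2 lower and a Wnt median from -0.0208 to 0.0244. Other pathway genes higher ran from 2 to 5, all genes higher from 218 to 803 (168 to 546 by 2-fold) and all genes lower from 31 to 111 (4 to 13 by 2-fold). Among the 20 Wnt genes of the naming rule, the log2 fold changes that changed sign ran from -0.0221 to 0.0130 for *Ctnnb1*, -0.481 to 1.21 for *Dkk1*, -0.0731 to 0.0369 for *Ryk* and -0.0435 to 0.0503 for *Wnt7a*. Libraries of the 2 genotypes share replicate numbers, but nothing pairs them, and deviations of same-numbered libraries had a correlation of 0.0119 over 14780 genes. With the replicate block 348 genes were lower, and 5 Wnt genes were higher and 3 lower, *Wnt9a* among them. Per-kb levels kept 9 of the 10 highest Wnt genes with the longest transcript as length and all 10 with equal totals. The 8 Wnt genes not called with a mean count under 100 had 95% intervals between -1.32 and 2.80, and the part of depth in their width was not tested.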

Other observations

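Reads of sex-linked genes were present in all 4 libraries. *Xist*, expressed from the inactive X chromosome of females, had 5471 and 3263 reads in S100A4-/- against 3281 and 3456 in WT, and its log2 fold change of 0.13 did not pass (limma adjusted p = 0.43). Of the genes of the Y chromosome, *Eif2s3y* rose, from 207 and 187 in WT to 354 and 375 in S100A4-/- (log2 fold change 0.89, limma adjusted p = 2.28e-06), and so did *Ddx3y*, from 505 and 347 to 570.3 and 556 (0.43, limma adjusted p = 0.0143). *Kdm5d* and *Uty* had log2 fold changes of 0.54 (limma adjusted p = 0.0513) and 0.27 (limma adjusted p = 0.476) and did not pass. Of the Wnt pathway genes named, *Porcn* and *Gpc3* are X-linked, with log2 fold changes of -0.08 and 1.11. The part of the sex of the pooled mice in any Wnt gene's difference was not tested.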
